A study of Glycine max with 18 samples.

Results

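StringTie, the program that assembled the reads, listed in every library loci of its own beside the annotated genes, and some of these loci lay on the strand opposite an annotated gene. These antisense loci are described here. A locus entered when it had a strand, lay on a chromosome, and overlapped an annotated gene on the opposite strand and none on its own strand. Overlapping loci of the same strand were merged over the 18 libraries, which gave 994 regions from 2477 loci. The regions kept were chosen by measured detection, namely those assembled in at least 2 of 3 replicates at 2 or more time points, and 112 of the 994 met this. Detection over libraries and time points is therefore a description of the choice and was not tested. The level of a region in a library is the summed TPM of its loci, where TPM is a value scaled by transcript length and library total, and it is 0 where no such locus was listed. A 0 says that the assembly listed no locus, not that RNA from that strand was absent.

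In plants, as in other eukaryotes, natural antisense transcripts run opposite to a gene and can overlap its start, its end or its whole length. In Arabidopsis, the antisense RNAs of the floral repressor *FLC*, known as COOLAIR, take part in silencing that gene in the cold, and *FLORE*, antisense to *CDF5*, oscillates in a phase opposite to that of its sense gene under clock control. A time course of both strands therefore allows a question that gene totals do not, whether an antisense region and the gene on the other strand are high at the same hours.

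The libraries came from the first trifoliate leaf of wild-type Ws82 soybean, in 6 groups of 3 biological replicates named L, M and R. According to the sample labels, plants grew about 18 d in short days (8 h light at 24 °C, 16 h dark at 22 °C) and were then moved to constant light at 25 °C, whereas the series text gives 14 d of 12 h light and 12 h dark. After 1 day of constant light, leaves were sampled every 4 h, at ZT24, ZT28, ZT32, ZT36, ZT40 and ZT44, which the labels count from 0 h to 20 h. ZT24 to ZT32 are called subjective light and ZT36 to ZT44 subjective dark, although the light stayed on. All groups share the genotype, the tissue and the free-running treatment, and the study calls the replicates biological.

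The aligned sequence ranged from 3.11 Gb to 7.24 Gb per library, and the 3 ZT44 libraries were the shallowest, at 3.11 Gb to 3.53 Gb. Read counts were not listed, and therefore no counting interval is given. ZT32 R stood apart, where 227701 assembled loci lacked a strand, while the other 17 libraries held 803 to 35008 of them. Their number also varied with the time point. It was 803 to 2405 at ZT24, 4602 to 20480 at ZT28 and 24321 to 227701 at ZT32. At ZT36 it was 2073 to 35008, at ZT40 5124 to 6366 and at ZT44 881 to 1908. The part of this variation in the time courses below was not tested. Without ZT32 R, 107 regions met the rule, against 112 with it. The kit keeps the strand of the RNA, but whether the aligner and the assembler used it is not given in the sources used here. Reads of a gene and of the region opposite it therefore cannot be told apart with certainty, and every level of a region, and of the gene under it, is uncertain to that extent.

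The 112 regions were spread over all 20 chromosomes, with 2 to 12 on each, and the highest numbers were on chromosome 18 (12 regions), chromosome 13 (11 regions) and chromosome 10 (10 regions). The plus strand carried 54 and the minus strand 58. Their lengths ran from 501 to 147677 bp with a median of 3076 bp, and 16 exceeded 10 kb. Single genes lay opposite 90 regions, and 22 spanned more than 1 gene, up to 9. For these, the gene with the longest overlap was taken as the partner, so that 112 different genes were paired. The overlap ranged from 115 to 9918 bp. It covered a median of 45.6% of the gene.

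By position, 37 regions lay wholly inside the gene, 28 reached over its annotated end, 26 covered it from start to end and 21 reached over its start. Regions that covered the gene had a median length of 7803 bp, and those inside it of 1573 bp. The partner genes themselves had a median length of 4359 bp, against 2922 bp over all 55589 annotated genes. An annotated gene on the region's own strand ended less than 1 kb upstream of 11 regions and less than 5 kb upstream of 28. The nearest ended 7 bp upstream. Whether such regions are separate transcripts or extensions of that upstream gene was not tested.

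For 14 clock and light-response genes, the study's text or figure labels give an identifier, among them *GmLHY1a*, *GmTOC1c*, *GmPRR5d* and *GmLUX1*. None of the 14 was overlapped by any of the 112 regions. None was the gene with the longest overlap of any of the 994 regions, and other genes under those regions were not checked. The closest of the 112 regions was on the plus strand of chromosome 16, from 1601693 to 1604600 (coordinates of Gmax_Wm82_a2_v1 throughout). This region lay 62.1 kb from *GmLHY1a* (*Glyma.16G017400*). It overlapped *Glyma.16G018000*. The other genes opposite a region are given by identifier only, since no table used here pairs them with a name or function.

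Detection varied between replicates. Only 4 of the 112 regions were assembled in all 18 libraries, 11 in at least 16, and 68 in 9 or fewer, with a median of 8. In all, 1051 of 2016 combinations of region and library held an antisense locus. In 126 others, the same strand carried a locus that also overlapped a gene on that strand, so that it no longer counted as antisense. In 79, that strand carried none, and a locus without strand overlapped the region somewhere. Whether this was the same locus was not tested. In the remaining 760, or 37.7%, no such locus was listed. Per library, 29 (ZT32 R) to 78 (ZT36 M) regions were found.

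**Figure D1:**
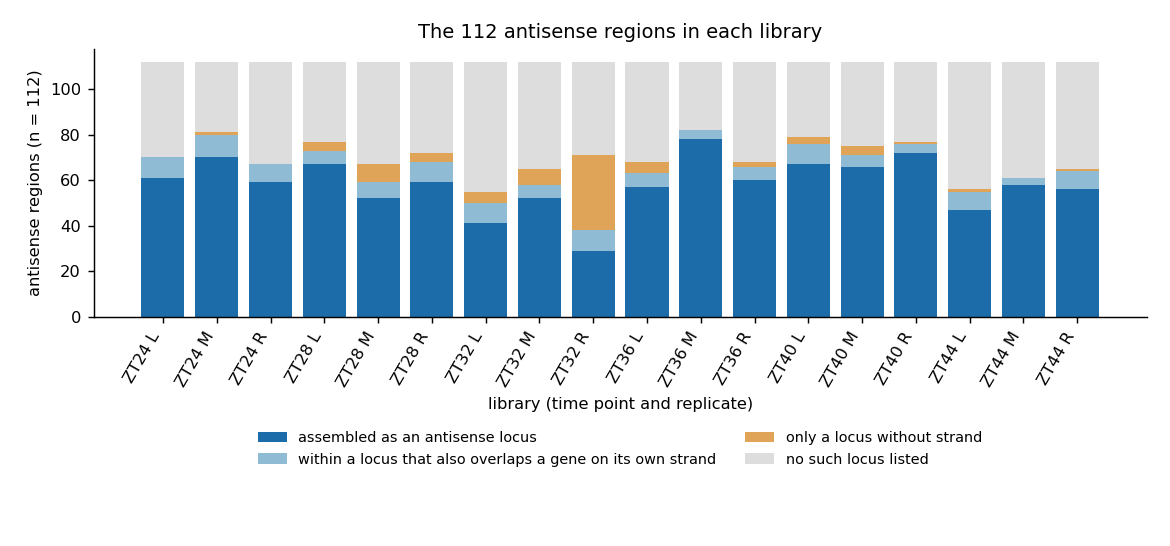
Number of the 112 antisense regions (y axis) in each of the 18 libraries (x axis), split by what the library listed at the place of the region. ZT32 R has the fewest antisense loci, 29, and the most places with a locus without strand, 33.

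In at least 2 of 3 replicates, ZT24 had 68 regions, ZT28 had 64, ZT32 had 41, ZT36 had 71, ZT40 had 69 and ZT44 had 55. At ZT32, L, M and R listed 41, 52 and 29 regions, and in 5, 7 and 33 others only a locus without strand stood in for the region's strand. The part of these loci in the low number at ZT32 was not tested. Of the 112, 11 met the replicate rule at all 6 time points, 15 at 5, 18 at 4, 19 at 3 and 49 at 2. Just outside the rule were 108 regions with 1 such time point. The median of the mean TPM was 0.337 for the 49 regions just inside and 0.125 for these 108.

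The strand on which a place was assembled was not the same in every library. Where a region was found, a locus on the gene's own strand was listed over the same overlap in 591 of 1051 cases (56.2%), and in 460 the antisense locus was the only stranded one. Where a region was not found, the gene's strand had a locus in 570 of 965 cases (59.1%). For 53 of the 112 regions, at least 1 library had the antisense locus as the only stranded one. In at least 1 other, the region was not found and the gene's strand held a locus. Such libraries can include those in which the region's strand held a locus that did not count as antisense. The gene's strand held a locus in all 18 libraries for 32 regions and in none for 12.

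A change of the assembled strand between libraries was also listed at a place outside the 112, chosen after its values were seen for its high TPM. *Glyma.13G028200* had the highest TPM of the genes, and the minus strand opposite it (chromosome 13, 7358193 to 7359151) held a locus in 4 libraries, with 150777 TPM in ZT28 L, 182368 TPM in ZT28 M, 127649 TPM in ZT36 L and 192192 TPM in ZT40 R. It held none in the other 14 libraries. In 3 of these 4, the gene's own strand had no assembled locus, and in ZT36 L it held one of 110370 TPM. The gene's own row was at 101733 to 139479 TPM in the 4 libraries with the antisense locus, against 44535 to 165756 TPM in the 14 without it, where the lowest value was that of ZT32 R and the next 104558 TPM. These ranges overlapped, so a locus assigned to the other strand came with no separation in the level listed for the gene.

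Most regions were weakly expressed. The mean TPM over the 18 libraries had a median of 0.560 and ranged from 0.0864 to 382, and it reached 1 TPM in 35 regions and 10 TPM in 4. Where a region was listed, the median was 1.21 TPM with quartiles of 0.653 and 2.53 TPM, at a median coverage of 4.07 reads per base. Together the 112 regions took between 0.00957% (ZT32 R) and 0.298% (ZT44 M) of the TPM of a library.

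The region exceeded its gene in mean TPM in 64 pairs and was below it in 48. The direction depended on the scale, since the median difference of region minus gene was -0.022 as a mean of log2(TPM + 1). The difference was above 10-fold in favour of the region in 3 pairs and in favour of the gene in 10. The genes had a median of the mean TPM of 0.687, against 0.396 over all annotated genes, and 58 of the 112 (51.8%) reached a mean of 1 TPM at some time point, against 44.3% of all annotated genes.

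**Figure D2:**
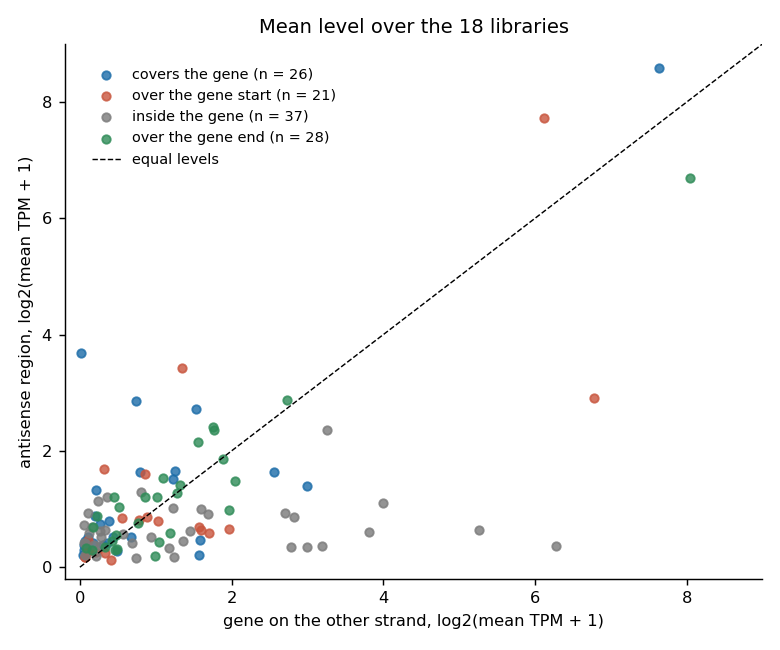
Mean level of each of the 112 antisense regions (y axis) and of the gene on the other strand (x axis) over the 18 libraries, both as log2(mean TPM + 1), with colours for the position of the region. Points above the dashed line are the 64 pairs in which the region was higher, and most points lie near the origin.

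The 6 regions with the highest mean TPM were named by rule. The highest lay on chromosome 15 (47402993 to 47405645, plus strand) and covered *Glyma.15G248500*, a gene of 381 bp. It was assembled in 13 libraries at 246 to 766 TPM and listed at 0 in ZT28 M, ZT32 L, ZT32 R, ZT40 M and ZT44 R. No time point other than ZT24 and ZT36 had the region in all 3 replicates. The gene itself was listed in all 18 libraries, at 31.0 to 53.6 TPM at ZT44 and at 57.7 to 359 TPM at the other time points, and it differed over time (limma F-test, adjusted p = 1.36e-06). Its strand held a locus in all 18 libraries.

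On chromosome 13, a region of 17161 bp (4218508 to 4235668, plus strand) over the start of *Glyma.13G024100* averaged 212 TPM. This mean rested on few libraries, since the region was found in 6, with 10.02 TPM in ZT24 L and 1172 TPM in ZT24 R, 36.4 TPM in ZT36 R, 30.0 TPM in ZT40 L, and 2472 TPM in ZT44 M and 96.6 TPM in ZT44 R. Replicates of 1 time point thus differed by over 10-fold. The gene was listed at 16.7 to 206 TPM in the 18 libraries.

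Another region on chromosome 13 (24232306 to 24240044, plus strand) spanned nearly all of *Glyma.13G129500* (96.9% of its length) and averaged 103 TPM over 11 libraries with a locus and 7 without. It was at 141, 358 and 207 TPM in the L, M and R libraries of ZT28, and at 96.3, 97.7 and 69.2 TPM in those of ZT36. It was listed at 0 in all 3 libraries of ZT44, in ZT24 L and M, in ZT32 R and in ZT40 L. The gene was highest at ZT24, with 491, 449 and 420 TPM, and it was lower in subjective dark than in subjective light by 1.10 ± 0.20 on the log2 scale (difference -1.10, SE, limma, adjusted p = 5.22e-05). The r between region and gene over the 6 time-point means was -0.181.

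The minus-strand region on chromosome 6 (45233716 to 45290427) was 56712 bp long, overlapped 5 genes and was assembled in 14 libraries. It was at 20.1, 31.6 and 21.2 TPM at ZT36 and 19.01, 21.1 and 18.1 TPM at ZT40, in L, M and R. It was at 13.2, 19.8 and 11.6 TPM at ZT24 and at 7.55 to 8.55 TPM at ZT28. No library of ZT32 listed it, and of ZT44 only M and R did, at 6.11 and 8.54 TPM. Its partner with the longest overlap, *Glyma.06G265300*, did not exceed 0.127 TPM in any library, far below the region. The region's level is summed over its whole length, also outside this gene, and the levels of the other genes under it are not given. The gene's strand held a locus over the overlap in 1 of the 18 libraries.

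The remaining pair of this group differed in stability. The region over the start of *Glyma.17G039100* (chromosome 17, 2893366 to 2897438, minus strand) was found in 6 libraries, at 7.94 to 46.4 TPM, while the gene was listed in every library at 9.60 to 227 TPM. It was absent from all libraries of ZT24 and ZT36, and the r over the time-point means was -0.811. The region over the start of *Glyma.01G118400* was found in every library and is described next.

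Tests over time were counted over the 4 regions assembled in all 18 libraries, where no value is a 0 of the assembly. They were adjusted over the whole table of 24725 features, which holds all annotated genes and merged antisense regions with a mean of at least 1 TPM at some time point. By limma's F-test over the 6 time points, 2 of the 4 differed, and 75.5% of all features did. By the 24-h cosine, 1 of the 4 passed, against 64.4% of all features. In subjective dark against subjective light, 0 of the 4 were higher and 1 was lower, and over all features 53.1% were higher and 10.6% lower. With 4 regions, no share can be read against these.

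The region opposite *Glyma.01G118400* (chromosome 1, 40770067 to 40783037, minus strand) is 12971 bp long and overlaps 46.5% of the gene from its start. In the L, M and R libraries it had 5.43, 8.62 and 7.44 TPM at ZT24, 17.7, 8.58 and 11.01 TPM at ZT28, and 12.6, 20.2 and 13.4 TPM at ZT32. At ZT36 it had 7.17, 7.38 and 3.17 TPM, at ZT40 13.1, 11.1 and 7.57 TPM, and at ZT44 5.63, 8.06 and 8.20 TPM. All 3 values of ZT32 lay above all 3 of ZT24, ZT36 and ZT44. The mean was 15.4 ± 4.2 TPM at ZT32 and 5.91 ± 2.38 TPM at ZT36 (SD, n = 3), and the region differed over time (limma F-test, adjusted p = 0.00522). It was lower in subjective dark (log2 difference -0.48 ± 0.18, SE, adjusted p = 0.0222), and this call was lost without ZT36 R (adjusted p = 0.0728) and without 3 other single libraries.

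*Glyma.01G118400* itself was at 0.562 to 2.33 TPM and did not pass the F-test (adjusted p = 0.108). It was higher in subjective dark, the direction opposite to its region (log2 difference 0.31, limma, adjusted p = 0.0384). This difference was no larger than the median of 0.34 over all features. The call was lost without each of 10 single libraries and with quantile normalization (adjusted p = 0.950). Its mean was 1.01 ± 0.44 TPM at ZT32, its lowest, and 2.09 ± 0.25 TPM at ZT40 (SD, n = 3). The ratio of region to gene differed over time in this pair (limma F-test on the log2 difference, adjusted p = 0.00297), and it stayed past the threshold when any library was left out. The r over the 6 time-point means was -0.433. Of the 4 pairs this was the only one whose ratio differed, and over all 285 opposite-strand pairs tested 47.7% did.

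The region opposite *Glyma.13G035000* (chromosome 13, 10878466 to 10884435, plus strand) covers that gene of 156 bp and is 5970 bp long. In L, M and R it had 3.21, 5.07 and 0.796 TPM at ZT24, 14.2, 5.39 and 6.36 TPM at ZT28, and 10.3, 8.85 and 9.61 TPM at ZT32. At ZT36 it had 7.03, 6.01 and 4.29 TPM, at ZT40 4.54, 9.20 and 5.33 TPM, and at ZT44 3.69, 4.22 and 3.79 TPM. It was high at ZT28 and ZT32 and low at ZT24 and ZT44, and the replicates of ZT28 lay far apart, with L well above M and R. It differed over time (adjusted p = 0.00325) and had a cosine with a peak at ZT33.1 (adjusted p = 0.0146, both limma). The gene stayed at or below 1.64 TPM and did not pass (adjusted p = 0.498), nor did the ratio (adjusted p = 0.256).

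The other 2 regions found in every library did not pass any of the 4 tests. The region over the end of *Glyma.09G112500* (chromosome 9, 22342321 to 22344758, plus strand) was at 1.51 to 7.68 TPM, with both extremes at ZT32, in L and R, and its F-test gave an adjusted p of 0.871. The region covering *Glyma.19G208800* (chromosome 19, 46372077 to 46373897, minus strand) was at 0.859 to 5.20 TPM, with both extremes at ZT44, and its adjusted p was 0.888 (limma). In both, replicates of 1 time point spread as widely as all 18 libraries. *Glyma.19G208800*, a gene of 249 bp, differed over time (adjusted p = 0.00939), and an annotated gene ended 628 bp upstream of the region on the region's strand.

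**Figure D3:**
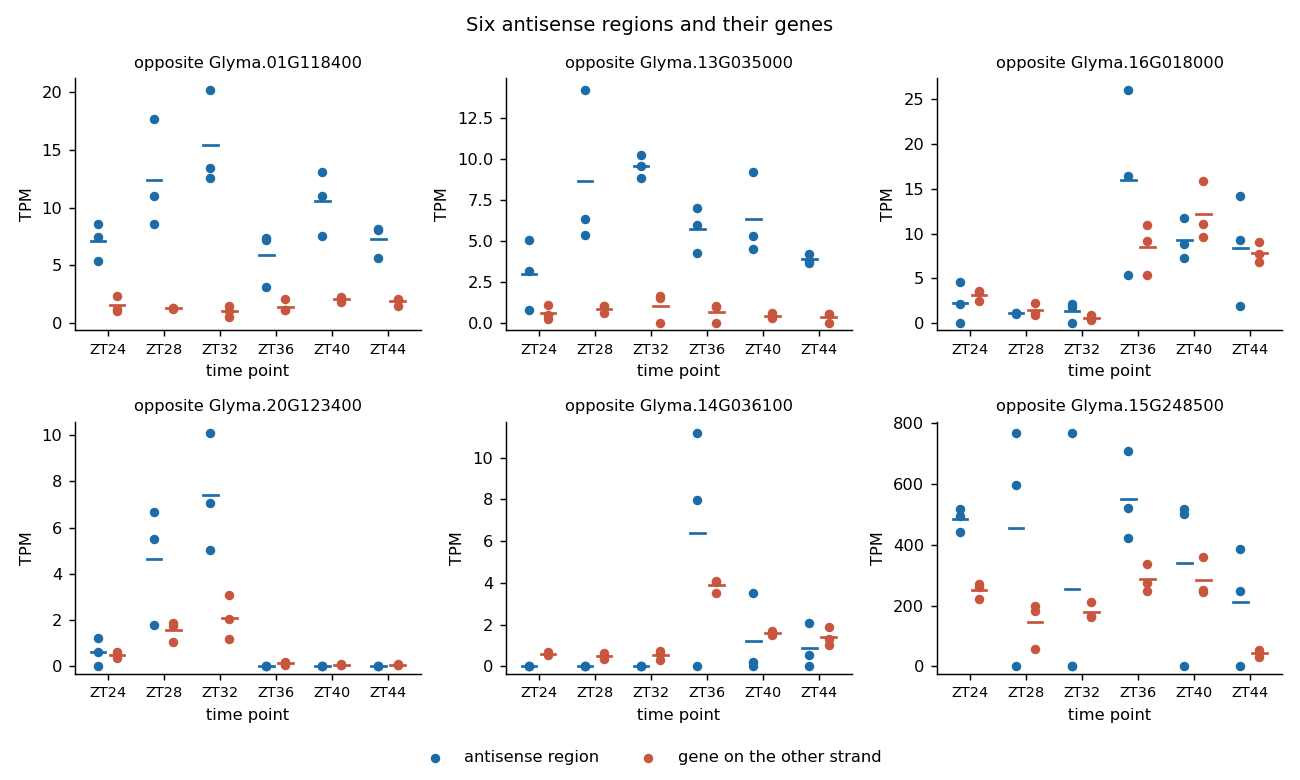
TPM (y axis) of 6 antisense regions (blue, left) and of the gene on the other strand (red, right) at the 6 time points (x axis), with a point for each of 3 replicates and a line at their mean. Points at 0 mark libraries that list no locus for the region, and the region opposite *Glyma.20G123400* is at 0 in all 9 libraries of ZT36 to ZT44.

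Another 7 regions were assembled in 16 or 17 libraries, with their 1 or 2 missing values entered as 0 in the fit. Over these and the 4 above, 7 of 11 differed over time by limma's F-test, against the same 75.5% of all features. Of the 7, 2 reached a mean of 1 TPM only at the time points at which they were high, and this count is a description. The 1439-bp region over the end of *Glyma.18G269300* (chromosome 18, 55305192 to 55306630, plus strand) was the highest of the 7 after the one opposite *Glyma.16G018000*. It had 8.92, 6.18 and 3.34 TPM at ZT24, 5.13, 3.20 and 2.80 TPM at ZT36, and 3.09, 8.52 and 7.87 TPM at ZT44 in L, M and R, and 0 in ZT28 M. It differed over time (limma, adjusted p = 0.0136), a call lost without ZT28 M (adjusted p = 0.0614) and with quantile normalization (adjusted p = 0.212). The gene, at 0.352 to 5.87 TPM, did not pass (adjusted p = 0.184), and r was 0.645.

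The region of 18212 bp over the end of *Glyma.11G208300* (chromosome 11, 29761863 to 29780074, plus strand) was highest at ZT36, with 2.89, 4.54 and 2.65 TPM in L, M and R, and was at or below 2.19 TPM in all libraries of subjective light. ZT32 R and ZT44 L did not list it. The gene was also highest at ZT36, at 5.53, 7.88 and 8.90 TPM, and stayed at or below 1.99 TPM in subjective light. It was higher in subjective dark by 1.60 ± 0.18 on the log2 scale (SE, limma, adjusted p = 4.54e-08). With its 2 missing values entered as 0, the region was higher by 0.56 ± 0.22 (SE, limma, adjusted p = 0.0269). This was not called with quantile normalization (adjusted p = 0.295) or a pseudocount of 0.1. It was also lost without each of 5 single libraries. One of these was ZT32 R, a library of subjective light with such a 0 (adjusted p = 0.0661 without it). Detection enters this difference, which is therefore a description. The r was 0.827.

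Inside *Glyma.14G206500*, a region of 8012 bp on the minus strand (chromosome 14, 47182577 to 47190588) was at 0.765 to 1.65 TPM in the 9 libraries of subjective dark. In subjective light, 8 of the 9 libraries were at or below 0.626 TPM, among them ZT28 M and ZT32 R at 0, and ZT32 L stood apart at 2.28 TPM. Its mean reached 1 TPM only at time points of subjective dark, and so no test of that difference is given. The gene did not exceed 0.265 TPM in any library, so the region was well above the gene whose span it shared.

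Inside *Glyma.13G352700* (chromosome 13, 44155274 to 44159612, plus strand), the region was at 2.00, 2.37 and 2.203 TPM at ZT24 and 1.09, 2.44 and 2.02 TPM at ZT44, and at or below 0.656 TPM at ZT32. At ZT36 the replicates ranged from 0 to 2.82 TPM. Its mean missed 1 TPM at ZT28 and ZT32, and no test is given. The gene was at most 0.572 TPM. The regions over the ends of *Glyma.09G233500* (0 to 3.61 TPM) and *Glyma.12G003300* (0 to 3.34 TPM) passed neither the F-test (adjusted p = 0.201 and 0.124) nor the cosine test.

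The following pairs were chosen after their values were seen, as examples in which region and gene were high at the same hours or at different hours, and are given as a description, with no test. The region over the end of *Glyma.16G018000*, which is the one nearest *GmLHY1a*, is 2908 bp long, covers 51.0% of the gene and was assembled in 16 libraries. It was at 16.4, 26.0 and 5.40 TPM at ZT36, 7.24, 8.85 and 11.7 TPM at ZT40, and 9.27, 1.87 and 14.2 TPM at ZT44 in L, M and R. In subjective light it stayed at or below 4.58 TPM, with 0 in ZT24 M and ZT32 R. Subjective dark and subjective light overlapped through ZT44 M alone.

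*Glyma.16G018000* was at 5.34, 10.9 and 9.18 TPM at ZT36, 11.02, 15.9 and 9.63 TPM at ZT40, and 7.72, 6.85 and 9.01 TPM at ZT44, and its 9 values of subjective light were all lower, at 0.332 to 3.61 TPM. The r over the time-point means was 0.921.

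The region covering *Glyma.20G123400* (chromosome 20, 36605636 to 36609194, plus strand) was found only in subjective light. In L, M and R it was at 1.24, 0.624 and 0 TPM at ZT24, 5.50, 1.79 and 6.69 TPM at ZT28, and 5.04, 10.1 and 7.07 TPM at ZT32, and it was not listed in the 9 libraries of ZT36 to ZT44. The gene had the same course at a lower level. It was at 1.04 to 1.89 TPM at ZT28, 1.16 to 3.09 TPM at ZT32 and at most 0.198 TPM in subjective dark, with r = 0.995 between region and gene. The region was the only stranded locus over the overlap in 5 of the 8 libraries that list it.

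The reverse course was seen over the end of *Glyma.14G036100* (chromosome 14, 2693887 to 2694836, minus strand). The region was listed at 7.97 and 11.2 TPM in ZT36 L and R, 0.200 and 3.50 TPM in ZT40 L and M, and 2.09 and 0.558 TPM in ZT44 L and R. None of the 9 libraries of subjective light listed it. The gene was at 3.51 to 4.08 TPM at ZT36, against 0.288 to 0.743 TPM in subjective light, and the 3 libraries of ZT36 lay above all 9 of those. The region spans only 10.6% of the gene, and r was 0.994.

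Over the end of *Glyma.01G020500* (chromosome 1, 2038736 to 2041569, plus strand), region and gene were both low at ZT28 and ZT32. The region was listed in 1 of these 6 libraries, at 0.637 TPM in ZT28 M, and at 0.839 to 3.00 TPM in all 12 libraries of the other 4 time points. The gene was at most 0.193 TPM at ZT28 and ZT32 and at 0.269 to 0.757 TPM otherwise, with r = 0.987. It is below the filter of 1 TPM and was not tested. Of all 112 regions, 2 were found in subjective dark only and 2 in subjective light only, and all others were assembled in at least 1 library of each.

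The longest region, of 147677 bp (chromosome 2, 11488656 to 11636332, plus strand), spanned 9 genes, of which *Glyma.02G117900* had the longest overlap. It was found in 13 libraries, with 7.57 TPM in ZT32 M, 12.4 TPM in ZT32 R and 4.57 TPM in ZT28 L as its highest values and at most 1.81 TPM elsewhere. The gene was highest at ZT44, at 2.98, 2.78 and 3.90 TPM, where the region was listed in M alone. Replicates of ZT32 thus ran from 0.818 TPM in L to 12.4 TPM in R.

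Pairs that were high at different hours also occurred. The region inside *Glyma.15G021700* (chromosome 15, 1675513 to 1676409, minus strand) is 897 bp long. It was at 1.57 to 1.96 TPM at ZT24, at 2.59 and 2.84 TPM in ZT32 L and M and at 1.17 to 1.73 TPM at ZT36, and only 1 library of ZT40 and 1 of ZT44 listed it, at 0.178 and 0.416 TPM. The gene was at 1.05 to 1.47 TPM at ZT24, and at 2.32 to 5.56 TPM at ZT36 and 2.84 to 3.54 TPM at ZT40. Region and gene thus parted most at ZT40. The r was -0.266.

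The region over the start of *Glyma.13G078200* (chromosome 13, 18398962 to 18401634, minus strand) was found in all 15 libraries outside ZT36, at 1.09 to 5.61 TPM, and in no library of ZT36. Its gene was at 0 to 0.0338 TPM at ZT36 and at most 0.775 TPM elsewhere, too low to be tested. The lowest r of all pairs, -0.973, belonged to the region covering *Glyma.07G158100* (chromosome 7, 19626390 to 19655412, plus strand), found in 14 libraries at up to 3.51 TPM. That gene stayed at or below 0.351 TPM, so its course rests on very little signal.

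Over all 112 pairs, the Pearson r between region and gene across the 6 time-point means of log2(TPM + 1) had a median of 0.399, with quartiles of -0.0916 and 0.766. It was positive in 81 pairs (72.3%) and negative in 31, above 0.8 in 28 and below -0.5 in 6. Only 6 points enter each r, and both members of a pair share libraries, depth and possibly reads, so r is given as a description. The time-point means also hold a 0 wherever no locus was listed. Over the 4 regions assembled in all 18 libraries, the median r was -0.066. It was -0.26 to 0.19 there when single libraries were left out. Pairs of annotated genes that overlap on opposite strands had a median of 0.291 (1302 pairs with values in both), and 66.3% were positive. Where both partners reached 1 TPM at some time point, the median was 0.645 in 44 antisense pairs and 0.581 in 213 annotated pairs. Of these, 79.5% of the antisense and 80.8% of the annotated pairs were positive, so the shares were near each other. The 882 antisense regions that were not kept had a median of 0.0577.

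**Figure D4:**
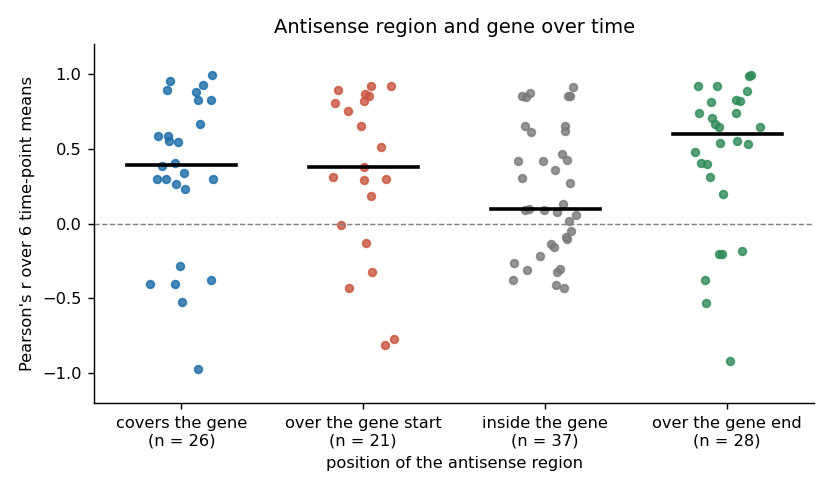
Pearson's r between antisense region and gene over the 6 time-point means (y axis) by the position of the region (x axis), with a point for each of 112 pairs and a line at the median. The medians are 0.394 for regions that cover the gene, 0.381 over its start, 0.0948 inside it and 0.598 over its end, and every class spans positive and negative values.

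By position, the median r was 0.598 in regions over the gene end, where 22 of 28 were positive, 0.394 in regions covering the gene (20 of 26) and 0.381 over the gene start (15 of 21). Inside the gene it was 0.0948, with 24 of 37 positive. Regions over the gene end also had the highest median of the mean TPM, 1.02, against 0.497 inside the gene. These classes were not tested against each other. The time point with the highest mean was the same in region and gene in 40 of 112 pairs, adjacent in 39, 2 steps of 4 h away in 18 and 3 steps away in 15. No share over annotated pairs is given beside these counts, which are a description.

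The genes' own rows were not used in the choice of regions, so their time courses could be tested. Of the 112 partner genes, 58 passed the filter of 1 TPM. By limma, 45 of the 58 differed over time (77.6%, against 75.5% of all features) and 40 had a 24-h cosine (69.0%, against 64.4%). In subjective dark 27 were higher (46.6%, against 53.1%) and 9 lower (15.5%, against 10.6%). Their median difference was 0.24 on the log2 scale, against 0.34 over all features. With quantile normalization, which moved the median of all features to 0.04, 13 were higher (22.4%, against 27.1%) and 15 lower (25.9%, against 22.3%). These shares were near those of all features.

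For the 101 regions that missed the replicate rule at 1 or more time points, the mean level of the gene was compared between time points with and without the region. It was higher with the region in 66 and lower in 35. The median difference was 0.05 on the log2 scale, with quartiles of -0.04 and 0.32, and it exceeded 0.5 in 14 pairs and fell below -0.5 in 7. The split follows detection, by which the regions were chosen. No share over all genes split at the same time points is given beside these counts, so they cannot be read as a result about the pairs. Regions were found in 561 combinations of region and library in subjective dark and 490 in subjective light. Over all features, 53.1% were higher in subjective dark and 10.6% lower. At ZT32, 41 regions met the replicate rule, against 55 to 71 at the other time points. Region and gene may also share reads, and a link between them was not tested.

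**Figure D5:**
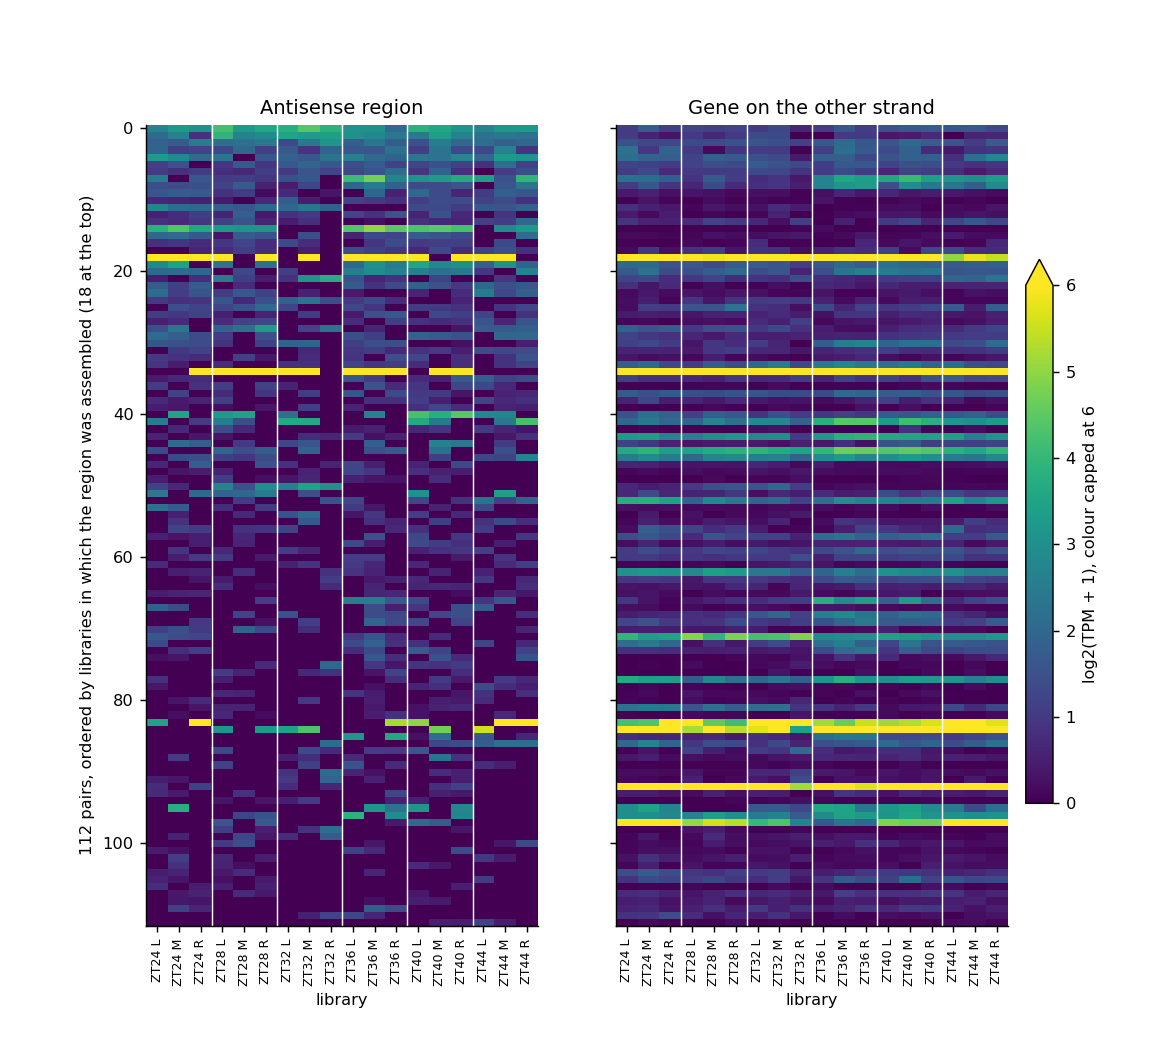
Levels of the 112 antisense regions (left) and of the genes on the other strand (right, same row order) in the 18 libraries, as log2(TPM + 1) with the colour capped at 6. Many regions are missing from single libraries, and in 3 rows with values above the cap the region is at 0 in some replicates.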

How the data were processed

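RNA-seq tables of 18 libraries of Ws82 leaves, 6 time points with 3 replicates each, were analysed. Per the labels and the study's methods, the authors removed ribosomal RNA, prepared stranded libraries, aligned the reads with HISAT2 2.2.1 to Gmax_Wm82_a2_v1 and ran StringTie, for which no version is given in the sources used here. The deposited tables hold FPKM, TPM and coverage. TPM is treated as a score, because the deposited assembled loci sum to 1000000 in each library and the annotated genes are listed on top of that scale. Coverage divided by FPKM gave the depth of each library, 3.11 Gb to 7.24 Gb.

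Loci were intersected with genes by at least 1 base (bedtools 2.31.1) and merged by strand. The members, lists and tests were chosen with earlier results of these data known. Values were tested as log2(TPM + 1), a scale that understates changes of low values, in R 4.3.3 by limma 3.58.1, using lmFit and a trended eBayes: a moderated F-test over time, a cosine and sine of 24 h, the mean of ZT36, ZT40 and ZT44 minus that of ZT24, ZT28 and ZT32, and an F-test of region minus gene. Features needed a mean of at least 1 TPM at a time point, p-values were Benjamini-Hochberg adjusted over the whole table, and the threshold was 0.05. The scripts were tested on simulated data. Figures were drawn with matplotlib 3.10.9.

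Named by rule were regions opposite the 14 genes whose identifiers stand in the study's text or figure labels (0 found), the 6 with the highest mean TPM, and, among regions in all 18 libraries, those with extreme r, range or ratio p. The r and range criteria also required that region and gene both pass the F-test, and 0 regions met them. No sequence was printed, because no genome of this build was used here. Alternatives were other detection rules, a pseudocount of 0.1, 5 TPM or no filter, quantile normalization, TPM of annotated genes rescaled to 1000000, FPKM, eBayes without trend, a replicate block, regions in at least 16 libraries, the gene with the highest TPM as partner, and each library left out. The medians over all 112 regions were added after seeing the data.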

Additional observations from a re-analysis of the deposited data

How the results depend on the processing

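With 3 of 3 replicates required at 2 or more time points, 38 regions were kept, with 2 of 3 at all 6 time points 11, and with 2 of 3 at 1 or more 220, against 112 as reported. An overlap of 100 bases and leaving out single libraries kept 98 to 112. Among regions in at least 16 libraries (11 instead of 4), 7 differed over time, against 75.5% of all features. A cosine was found in 5, against 64.4%. Subjective dark and light differed in 4, while 53.1% of all features were higher in dark and 10.6% lower. These counts are a description, since 2 of the 11 reached a mean of 1 TPM only where they were high. In the 11, the median r was 0.619 and the median log2 level of region minus gene 0.55. Over the 4 regions in all libraries the last 2 were -0.0663 and 1.28. With quantile normalization, 2 had a cosine, 3 differed between dark and light and r was 0.361. Spearman's rho was -0.171. Without a filter 0 differed between dark and light, and at 5 TPM 0 ratios passed, since none was tested. The level was 1.71 with a pseudocount of 0.1, 1.39 rescaled and 1.07 with the highest gene as partner. Over all 112 regions, with no locus as 0, r was 0.399 and the level -0.022, the opposite sign.

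Leaving out 1 library gave 98 to 107 regions, 2 F-test calls and 1 cosine call throughout, 0 to 1 dark-light calls (0 without ZT28 L, ZT36 R, ZT40 R or ZT44 L), 1 to 2 ratio calls (2 without ZT32 L), a median r of -0.26 to 0.19 and a level of 1.21 to 1.32. With a replicate block, 2 of 4 regions differed over time, as without it. Deviations from the time-point mean had a median r of -0.0133 between libraries of the same letter (-0.37 to 0.32, 45 pairs). Between different letters it was 0.0023 (-0.36 to 0.47, 90 pairs). These medians showed no pairing by letter, but cannot exclude it for some libraries. The median peak time difference had no value, since in none of the 4 pairs did both partners pass the cosine test. The cause of these changes was not tested. Low values rest on few reads, most of all in the shallow ZT44 libraries.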
